A study of Mus musculus with 11 samples.

Results

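The genes described here code for the subunits of the receptors for glutamate and GABA, the main excitatory and inhibitory transmitters of the brain. They were chosen by symbol (Gria, Grik, Grin, Grid, Grm, Gabr and Gabbr genes), and no measured value was used. The rule matched 47 of the 22619 genes in the count table. RNA-seq libraries were made from 11 samples of SMB21, a medulloblastoma cell line with a Ptch mutant genotype from adult mice of the strain background Ptch1tm1Mps/J, grown as neurospheres. All groups share that mutation, which leaves the Hedgehog pathway active. The groups were untreated parental cells (n = 3), parental cells given sonidegib, an inhibitor of the Hedgehog transducer Smoothened, for 24 h (n = 2), Sufu mutant clones (n = 2: R13 and R1) and Ofd1 mutant clones (n = 4: R14 in 2 libraries, R16 and R25). Each clone came from a transposon screen for drug resistance and is 1 line. Whether the clones were kept in drug, which other genes carry insertions, and whether parental replicates were separate cultures is not stated, so p-values measure the spread between these libraries.

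Ionotropic glutamate receptors are channels of 4 subunits and form the AMPA, kainate, NMDA and delta families, and the metabotropic (mGlu) receptors couple to G proteins. GABA-A receptors are chloride channels, usually built from alpha, beta and gamma subunits whose genes lie in chromosomal clusters, and GABA-B receptors are G protein-coupled pairs of Gabbr1 and Gabbr2 products. Medulloblastoma of this class arises from cerebellar granule cell progenitors, and as granule cells mature they exchange the NMDA subunit Grin2b for Grin2a and Grin2c and switch on the GABA-A subunit Gabra6. The label of a medulloblastoma line was checked on marker transcripts. All 7 granule cell progenitor markers were detected. They summed to 1944 to 2222 CPM in parental cells and 3391 to 3786 CPM with sonidegib. In Sufu and Ofd1 mutants the sums were 1672 to 1677 and 1825 to 2303 CPM. Mature granule neuron markers were detected in 7 of 8 cases, at lower summed levels of 227 to 465 CPM. Of these 8, Gabra6 alone was not detected (1 count in all 11 libraries). Markers of other cells were not absent. Those of astrocytes and Bergmann glia summed to 211 to 880 CPM (5 of 7 detected, led by the glutamate transporters Slc1a2 and Slc1a3), while the astrocyte marker Aqp4 did not pass 0.0519 CPM. Those of the oligodendrocyte lineage summed to 60.5 to 486 CPM (7 of 7 detected), of which Pdgfra alone gave 50.3 to 465 CPM. Olig1 and Sox10 reached 0.5 CPM only in R1 (3.53 and 2.81 CPM), and Mbp only in parental 1 (0.633 CPM).

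Libraries held 24308451 to 38241595 counts. Levels are CPM, counts scaled to a common library size with TMM factors, and 0.5 CPM equals 11.9 to 19.3 counts. Parental 1, parental 2 and sonidegib 1 stood apart from the other 8 libraries on the second principal component (scores of 40.3 to 41.1 against -44.7 to -3.04), and in sonidegib 2 levels lacked the positive relation with transcript length seen elsewhere (Spearman rho -0.0302 against 0.193 to 0.241, across genes). Ofd1 transcript was at 42.9, 35.4 and 37.2 CPM in parental cells, 45.1 and 23.4 CPM with sonidegib, 42.6 and 40.3 CPM in the Sufu clones and 13.6, 23.4, 9.27 and 13.6 CPM in the Ofd1 mutants, where R14 replicate 2 was level with sonidegib 2. Clones R13 and R1 held 2.76 and 17.7 CPM of Sufu, which was at 29.6, 27.7 and 28.7 CPM in parental cells, 24.8 and 5.60 CPM with sonidegib and 12.02, 12.4, 15.7 and 19.2 CPM in the Ofd1 mutants. Sufu was thus below parental cells in both clones, but in R1 it lay above 3 of 4 Ofd1 libraries and sonidegib 2, so its level does not set R1 apart from libraries with other labels.

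Of the 47 receptor genes, 29 reached 0.5 CPM in at least 1 library, a share of 61.7% against 63.0% of all genes, and 17 reached it in all 11. A threshold of 1 CPM left 25, a mean of 0.5 CPM over the libraries left 25, and 0.5 CPM in every library of some group left 23. Per library the number ran from 20 in sonidegib 2 to 26 in R13 and in R25. In the families counted here, all 4 AMPA, 5 of 5 kainate, 6 of 7 NMDA, 6 of 16 GABA-A, 2 of 3 GABA-rho and 2 of 2 GABA-B genes were detected. Most metabotropic glutamate receptor genes were not detected. Just inside the threshold lay Gabrb1, Gria1 and Gabrr2, with maxima of 0.561, 0.597 and 0.649 CPM, and just outside it Grm2 and Gabre, with maxima of 0.240 and 0.208 CPM. The 18 genes not detected never exceeded 8 counts in a library. Among them 6 had no count in any library (Gabra3, Gabra5, Gabrg3, Gabrp, Gabrq and Grm6), which allows up to 0.00859 CPM over the 11 libraries for counting error only.

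**Figure D1:**
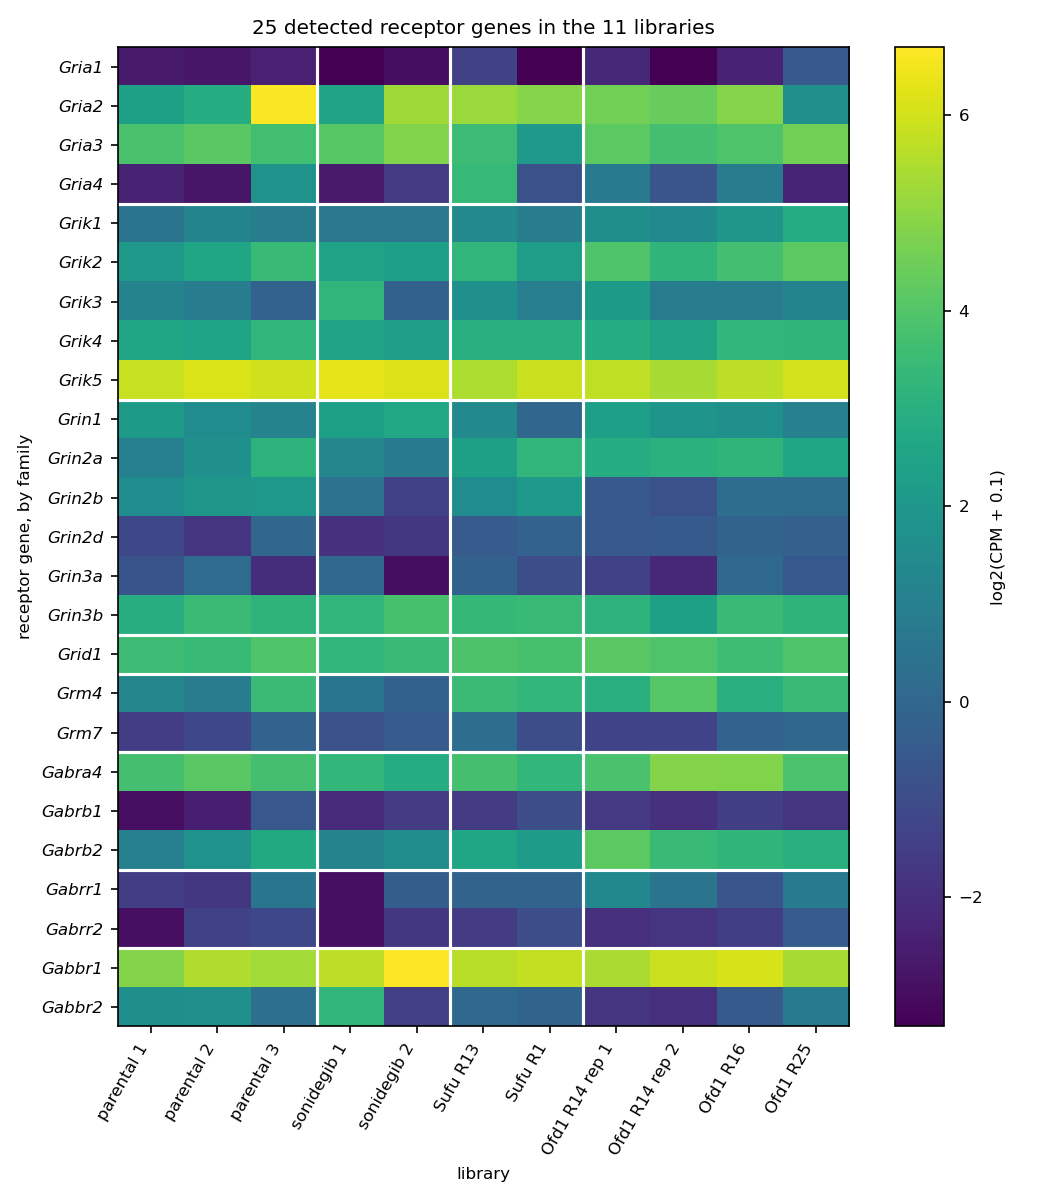
Levels of 25 of the 29 detected receptor genes (rows, by family) in the 11 libraries (columns, by group) as log2(CPM + 0.1), with white lines between families and between groups. Grik5 and Gabbr1 are bright in every column, Gria2 is brightest in parental 3, and Gria1, Gabrb1 and Gabrr2 are dark nearly throughout.

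Detected and undetected genes lie side by side in the GABA-A clusters. In the chromosome 11 cluster (RefSeq, GRCm38.p6), Gabrb2 was detected and its neighbour Gabra6 was not. On chromosome 5 the order is Gabrg1, Gabra2, Gabra4 and Gabrb1, and Gabra4 was the highest GABA-A gene of the line while Gabrg1 and Gabra2 had 6 counts each in all libraries together. On chromosome 7 Gabrg3 and Gabra5 had no count. Gabre, Gabra3 and Gabrq on the X chromosome were not detected, nor were Gabrd and Gabrp. The 250 bases upstream of the start sites of a detected and an undetected member of the chromosome 11 and chromosome 5 clusters, and of Gria2, the gene with the widest range among the 12 highest, show how differently these promoters are built. They are printed 5′ to 3′ on the gene's strand from RefSeq, with CpG dinucleotides in capitals.

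Gabrb2, detected, chr11:42420190-42420439, plus strand: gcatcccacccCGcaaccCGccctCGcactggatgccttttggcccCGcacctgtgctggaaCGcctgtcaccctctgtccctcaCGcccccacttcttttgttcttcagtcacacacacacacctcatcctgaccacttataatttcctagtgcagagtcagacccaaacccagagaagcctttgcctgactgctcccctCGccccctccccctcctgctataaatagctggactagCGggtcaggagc
Gabra6, not detected, chr11:42321073-42321322, minus strand: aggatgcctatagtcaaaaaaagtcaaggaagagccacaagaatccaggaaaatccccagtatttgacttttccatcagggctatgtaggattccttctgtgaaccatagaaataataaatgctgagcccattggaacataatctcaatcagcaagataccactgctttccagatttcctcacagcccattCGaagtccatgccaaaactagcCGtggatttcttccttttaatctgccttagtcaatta
Gabra4, detected, chr5:71658309-71658558, minus strand: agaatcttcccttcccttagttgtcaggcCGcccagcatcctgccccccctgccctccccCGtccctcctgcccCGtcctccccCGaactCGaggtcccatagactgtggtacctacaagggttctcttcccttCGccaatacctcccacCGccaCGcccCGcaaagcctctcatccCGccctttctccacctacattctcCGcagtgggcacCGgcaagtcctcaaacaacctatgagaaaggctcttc
Gabrg1, not detected, chr5:70842618-70842867, minus strand: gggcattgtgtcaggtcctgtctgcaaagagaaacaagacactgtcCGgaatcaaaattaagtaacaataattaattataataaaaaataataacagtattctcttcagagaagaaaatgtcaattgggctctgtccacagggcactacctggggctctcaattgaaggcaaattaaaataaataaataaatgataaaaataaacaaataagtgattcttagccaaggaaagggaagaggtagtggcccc
Gria2, detected, chr3:80802836-80803085, minus strand: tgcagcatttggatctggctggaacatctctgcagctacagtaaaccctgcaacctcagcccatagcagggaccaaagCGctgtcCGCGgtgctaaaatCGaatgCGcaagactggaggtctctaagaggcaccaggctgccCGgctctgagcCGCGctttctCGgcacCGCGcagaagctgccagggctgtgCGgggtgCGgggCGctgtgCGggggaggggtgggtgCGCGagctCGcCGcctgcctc

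The Gabrb2 window holds 8 CpG and 58.8% G or C, against 2 CpG and 40.8% in its undetected neighbour Gabra6. The Gabra4 window holds 12 CpG and that of Gabrg1 1. The contrast is no rule within the cluster, since the window of Gabra2, also not detected, holds 18 CpG, 1 fewer than the 19 of Gria2. Over the 32 receptor genes with a promoter entry, the median was 16 CpG in 17 detected genes (1 to 42) and 9 in 15 undetected ones (0 to 29), against 6 over 27025 genes, taking for each gene its window with the most CpG. The Gli consensus GACCACCCA, searched on both strands, was in 0 of the 39 receptor gene windows and in 0.225% of all 32851 windows, which says only that these letters are not in these bases.

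Among AMPA subunits, Gria2, whose product makes the channel impermeable to calcium, stood at 5.09, 7.30 and 100.3 CPM in parental 1, 2 and 3. It was at 5.64 and 39.0 CPM with sonidegib, 36.1 and 29.4 CPM in R13 and R1, and 23.6, 20.4, 29.5 and 3.14 CPM in R14 replicate 1, R14 replicate 2, R16 and R25. Parental 3 was the highest library and R25 the lowest, and every other group lay within the parental range except for R25. Gria3 was at 13.99, 17.7 and 12.4 CPM in parental cells, 17.1 and 27.4 CPM with sonidegib, 11.5 and 4.12 CPM in R13 and R1, and 18.2, 13.4, 15.1 and 23.8 CPM in the Ofd1 mutants. Both Sufu clones lay below all parental libraries for Gria3, and the Ofd1 and parental values overlapped. Gria4 had 3 and 2 counts in parental 1 and 2 and reached 3.40 CPM in parental 3 and 10.4 CPM in R13, while R1 held 0.462 CPM. Gria1 did not exceed 3 counts in a parental library and peaked at 0.597 CPM in R25.

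Every kainate receptor gene was detected in every library. Grik5, a high-affinity subunit that works only with other kainate subunits, was the highest receptor gene per length, at 15.9 CPM per kb of transcript over the 11 libraries. It was at 58.3, 69.2 and 62.6 CPM in parental cells, 79.2 and 72.3 CPM with sonidegib, 44.6 and 59.4 CPM in R13 and R1, and 53.7, 41.7, 51.6 and 64.2 CPM in the Ofd1 mutants. Its 11 values spanned 1.90-fold, a narrow range beside the 31.9-fold of Gria2. Grik5 took 74.8% to 91.4% of the summed kainate level per length. The 4 Ofd1 libraries stood at 74.8% to 79.5% and the parental ones at 83.3% to 88.5%. The Sufu clone R13, at 77.75%, lay within the Ofd1 range, and R1, at 86.0%, within the parental one. Of the subunits that can form channels alone, Grik2 was at 4.05, 6.08 and 10.6 CPM in parental cells, 5.34 and 5.00 CPM with sonidegib, 9.62 and 4.75 CPM in the Sufu clones, and 15.4, 9.41, 13.01 and 18.2 CPM in the Ofd1 mutants. Grik1 was at 1.36, 2.20 and 1.80 CPM in parental cells, 1.47 and 1.46 CPM with sonidegib, 2.56 and 1.81 CPM in the Sufu clones, and 3.11, 2.69, 3.84 and 7.24 CPM in the Ofd1 mutants. All 4 Ofd1 libraries were above all 7 others for Grik1, and for Grik2 only R14 replicate 2 fell inside the range of the others. Grik4, another high-affinity subunit, varied little, from 4.68 to 9.75 CPM, and Grik3 stood at 0.775 to 4.25 CPM in 10 libraries and at 9.61 CPM in sonidegib 1.

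Among NMDA subunits, Grin1, which every NMDA receptor needs, was at 4.27, 2.84 and 2.16 CPM in parental cells, 5.11 and 6.38 CPM with sonidegib, 2.69 and 0.882 CPM in R13 and R1, and 5.00, 3.56, 3.15 and 1.97 CPM in the Ofd1 mutants. Grin2b, the GluN2 subunit of immature neurons, was at 2.85, 3.90 and 3.93 CPM in parental cells and at 2.85 and 4.16 CPM in R13 and R1. It was at 1.30 and 0.298 CPM with sonidegib and at 0.590, 0.464, 1.14 and 1.09 CPM in the Ofd1 mutants. Its values thus fell in separate ranges, with parental cells and Sufu clones at 2.85 CPM or more and sonidegib-treated cells and Ofd1 clones at 1.30 CPM or less. Grin2a was at 1.90, 3.13 and 8.74 CPM in parental cells, 2.40 and 1.67 CPM with sonidegib, 5.13 and 9.54 CPM in the Sufu clones, and 7.36, 8.39, 9.20 and 5.94 CPM in the Ofd1 mutants. Per length, Grin2b made up 47.7%, 43.1% and 21.5% of the sum of Grin2a and Grin2b in parental 1, 2 and 3, 24.8% and 9.80% with sonidegib, and 25.2% and 20.97% in R13 and R1. In the Ofd1 mutants that share was 4.65%, 3.26%, 6.996% and 10.04%, below every parental and Sufu library. Grin2c was not detected (at most 4 counts), Grin2d did not pass 0.886 CPM and Grin3a did not pass 1.03 CPM. Grin3b, a glycine-binding subunit, stood at 5.08 to 13.8 CPM, and its gene overlaps Tmem259.

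**Figure D2:**
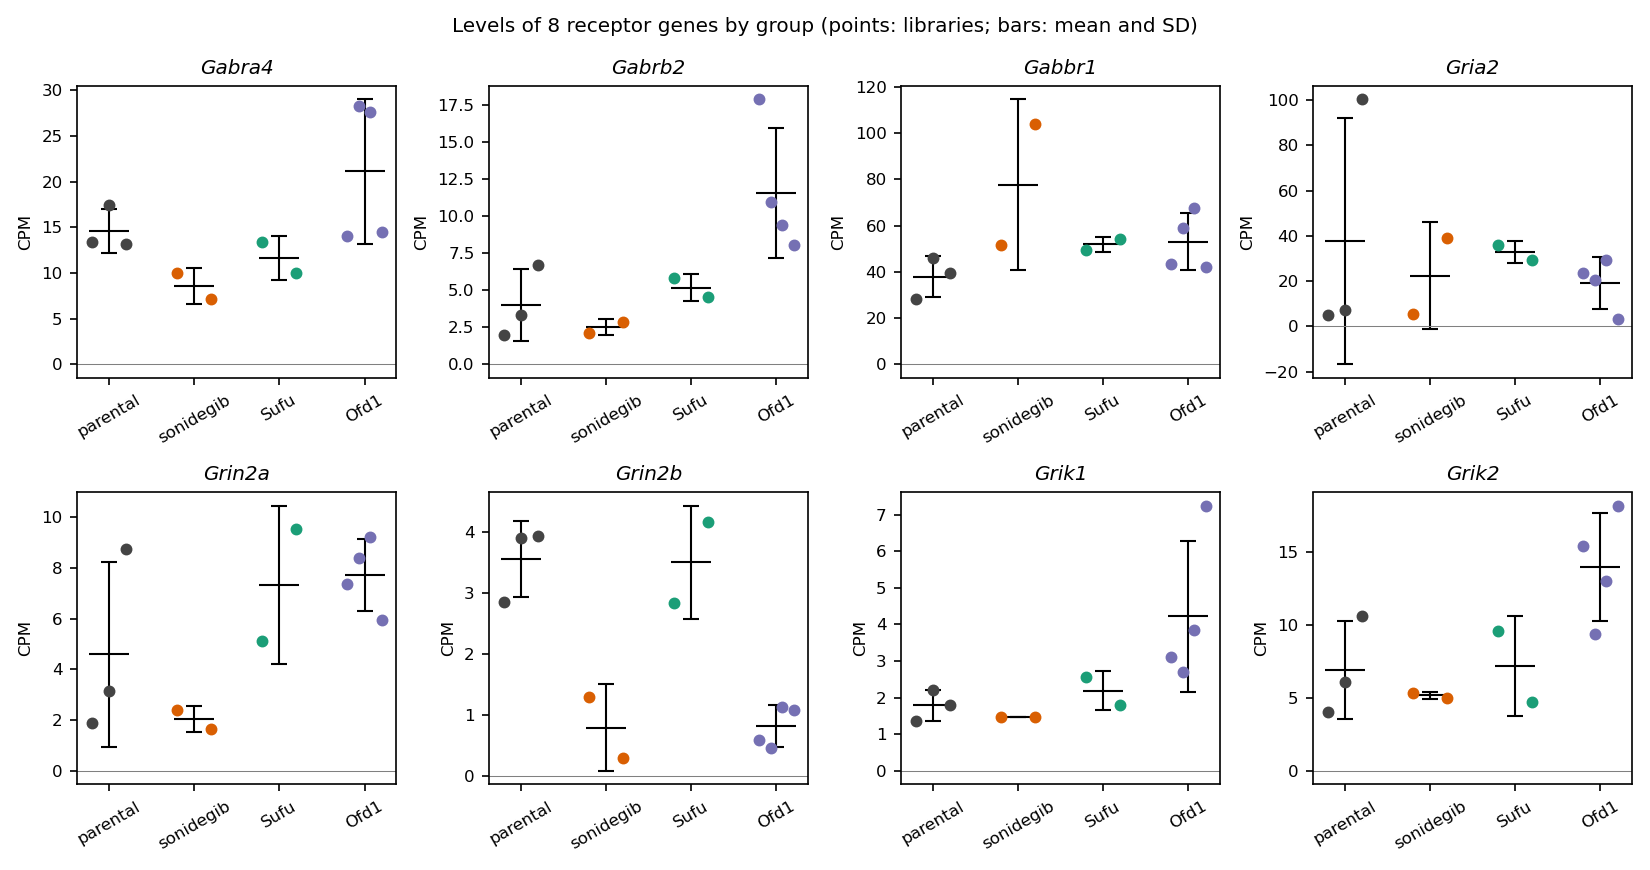
Levels in CPM of 8 receptor genes in each library (points) with the mean and SD of each group (bars), on linear axes that differ between panels. Grik1 and Gabrb2 lie higher in the Ofd1 mutants than in all other groups, Grin2b is lower with sonidegib and in the Ofd1 mutants, and the parental point at 100.3 CPM of Gria2 is replicate 3.

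Grid1, a delta receptor gene whose product binds cerebellins, was detected in all 11 libraries. It was at 11.5, 10.9 and 15.1 CPM in parental cells, 9.68 and 10.96 CPM with sonidegib, 15.0 and 13.6 CPM in the Sufu clones, and 17.6, 15.4, 12.03 and 15.1 CPM in the Ofd1 mutants. Among metabotropic genes, Grm4, a group III receptor that lowers cyclic AMP and is known from granule cells, was at 2.34, 1.80 and 11.4 CPM in parental cells, 1.40 and 0.775 CPM with sonidegib, 11.2 and 9.83 CPM in the Sufu clones, and 8.01, 16.7, 7.96 and 11.1 CPM in the Ofd1 mutants. Parental 3 lay with the clones for Grm4, and parental 1 and 2 lay near the sonidegib libraries. Grm7 ranged from 0.253 to 1.12 CPM, Grm2, Grm3, Grm5 and Grm8 stayed below 0.5 CPM, and Grm6 had no count.

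Among GABA-A receptor genes, the alpha subunit Gabra4 was at 13.4, 17.4 and 13.1 CPM in parental cells, 9.94 and 7.18 CPM with sonidegib, 13.3 and 9.96 CPM in the Sufu clones, and 14.1, 28.3, 27.6 and 14.4 CPM in the Ofd1 mutants. R14 replicate 2 and R16 were above all other libraries, and the 2 R14 libraries, of the same clone, stood at 14.1 and 28.3 CPM. The beta subunit Gabrb2 was at 1.96, 3.35 and 6.70 CPM in parental cells, 2.14 and 2.89 CPM with sonidegib, 5.85 and 4.54 CPM in the Sufu clones, and 17.9, 10.99, 9.43 and 8.04 CPM in the Ofd1 mutants. All 4 Ofd1 libraries were above all others, and parental 3 was the nearest.

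The GABA-rho gene Gabrr1 ran from 0.0334 CPM in sonidegib 1 to 2.45 CPM in R14 replicate 1, and Gabrr3 was not detected. Of the GABA-B pair, Gabbr1, which binds GABA, was at 28.5, 45.8 and 39.5 CPM in parental cells, 51.7 and 103.9 CPM with sonidegib, 49.5 and 54.2 CPM in the Sufu clones, and 43.4, 59.1, 67.6 and 42.3 CPM in the Ofd1 mutants. Gabbr2, which couples the pair to the G protein, was at 3.07, 3.21 and 1.18 CPM in parental cells, 9.58 and 0.268 CPM with sonidegib, 0.962 and 0.840 CPM in the Sufu clones, and 0.186, 0.155, 0.618 and 1.66 CPM in the Ofd1 mutants. Gabbr2 was at most 14.5% of the summed GABA-B level per length, and it was at 6.01% or more in parental 1, parental 2 and sonidegib 1 and at 3.46% or less in the other 8 libraries, parental 3 and both Sufu clones included. In bulk RNA, fewer cells that express a gene and less of its RNA per cell cannot be told apart. The labels do not say whether counting used the strand, so Grik5 (overlapping Zfp574), Grin1 (Lrrc26), Grin3a (Ppp3r2), Grin3b, and the pair Gabra4 with Gabrb1 are uncertain where reads could be shared.

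**Figure D3:**
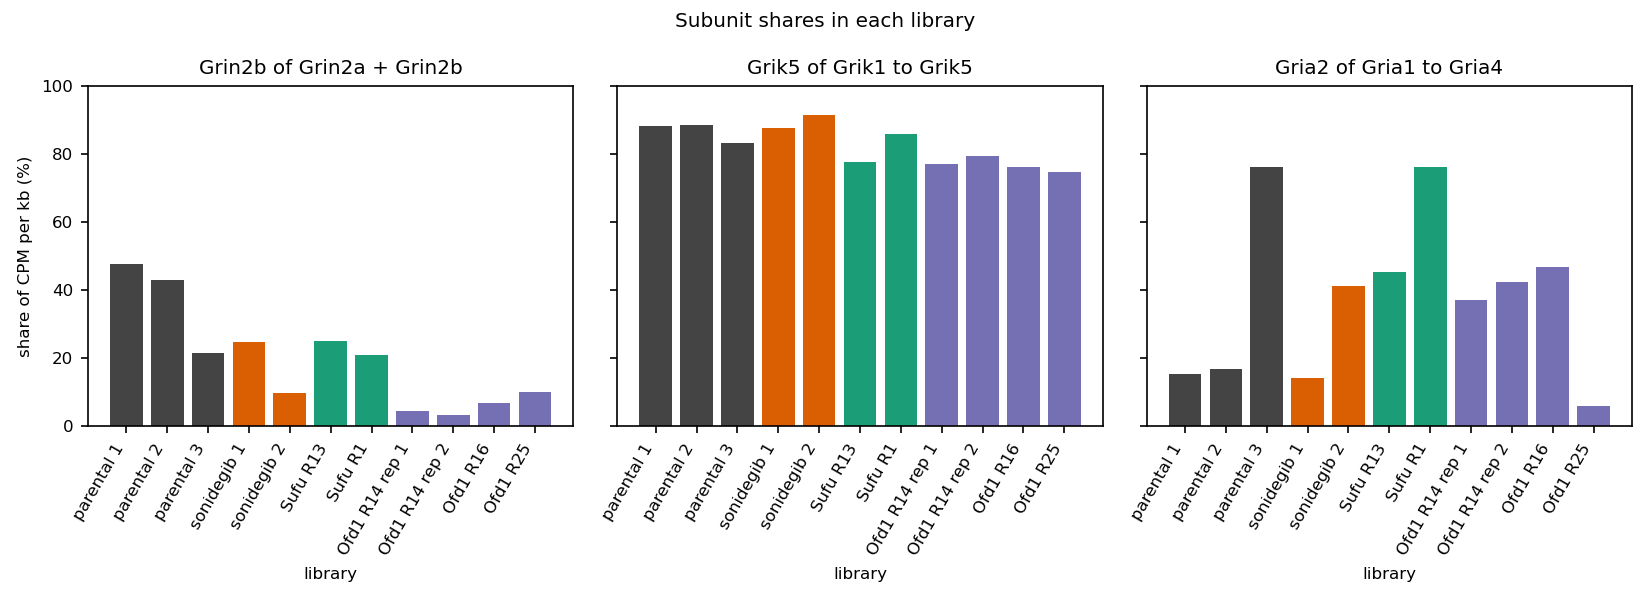
Share in percent of Grin2b in Grin2a plus Grin2b, of Grik5 in all Grik genes, and of Gria2 in all Gria genes, computed from CPM per kb of transcript, for each of the 11 libraries (bars coloured by group). The Grin2b share is 10.04% or less in the 4 Ofd1 libraries and sonidegib 2, and the Gria2 share is 76.1% in parental 3 and 76.3% in R1.

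Sonidegib against untreated parental cells asks how receptor transcripts differ after 24 h with this Smoothened inhibitor. Both treated libraries lay below all parental ones for Grin2b and Gabra4 and above them for Gabbr1, but no receptor gene passed the test. Of 24 receptor genes tested, 0 were called by the edgeR quasi-likelihood test at an adjusted p under 0.05, where 0.0652% of all 13809 genes were. At an unadjusted p under 0.05 stood 4 of 24 (16.7%), 1 higher and 3 lower, near the 14% of all genes. In 3 genes both treated libraries lay above all parental ones (Gabbr1, Grin1 and Grik5; 18.0% of all genes) and in 3 below (Grin2b, Grm4 and Gabra4; 16.3%).

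The log2 difference of Grin2b was -2.16 ± 0.70 (SE; adjusted p = 0.277 by edgeR), that of Gabbr1 1.03 ± 0.34 (adjusted p = 0.288) and that of Gabra4 -0.78 ± 0.33 (adjusted p = 0.356). Grm4 was at 1.09 ± 0.443 against 5.19 ± 5.41 CPM, a difference of -2.25 ± 0.94 (adjusted p = 0.355) that was -0.96 without parental 3. Grin1 differed by 0.88 ± 0.44 (adjusted p = 0.403) and Gria3 by 0.59 ± 0.32 (adjusted p = 0.423). Over the 24 genes the median was -0.36, beside 0.04 for all genes, and 16 values were negative. DESeq2 called 1 receptor gene, Grin2b (-2.18, adjusted p = 0.0315), and 5.64% of all genes. Sonidegib 1 and 2 differed widely: without sonidegib 1, Grin2b was at -3.62 and Gabbr1 at 1.40. Without sonidegib 2, Grin2b was at -1.47, Gabbr1 at 0.43 and Gria3 at 0.20. After removal of the trend on transcript length, in which sonidegib 2 stood apart, Grin2b was nearer to no difference, at -1.61. Gabbr1, at 1.325, and Gria3, at 0.86, were then further from it. With parental 1, parental 2 and sonidegib 1 alone, which lie together on the second component, Grin2b differed by -1.40, Gabbr1 by 0.46, Gria3 by 0.09, Grin1 by 0.51 and Grm4 by -0.58.

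In Sufu mutant clones against parental cells, Gabbr1 lay above and Gabbr2 and Gria3 lay below all parental libraries in both clones, and again no difference passed the test. Of 28 receptor genes tested, 0 were called by edgeR, as were 0% of all 13854 genes. An unadjusted p under 0.05 was found in 3 of 28 (10.7%), 2 higher and 1 lower, close to the 9.68% of all genes. In 3 of 28 genes, Gabbr1 among them, both clones were above all parental libraries (11.9% of all genes), and in 2 of 28, Gabbr2 and Gria3, below (14.8%).

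Gabbr2 differed by -1.45 ± 0.58 (adjusted p = 0.504), or by -0.38 with parental 3 as the only control. Gabbr1 differed by 0.47 ± 0.22 (adjusted p = 0.577), Grik5 by -0.27 ± 0.18 (adjusted p = 0.658) and Gria3 by -0.89 ± 0.46 (adjusted p = 0.595). Leaving out R13 or R1 moved Gria3 to -1.83 or -0.34 and Grik5 to -0.09 or -0.49, and Gabbr1 was at 0.30 without parental 1. The median over the 28 genes was 0.35 beside 0.00 for all genes, with 21 values positive. Grin2b, in contrast to its low level in the Ofd1 clones, was at 3.50 ± 0.929 against 3.56 ± 0.616 CPM. DESeq2 called 2 receptor genes and 2.25% of all genes.

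**Figure D4:**
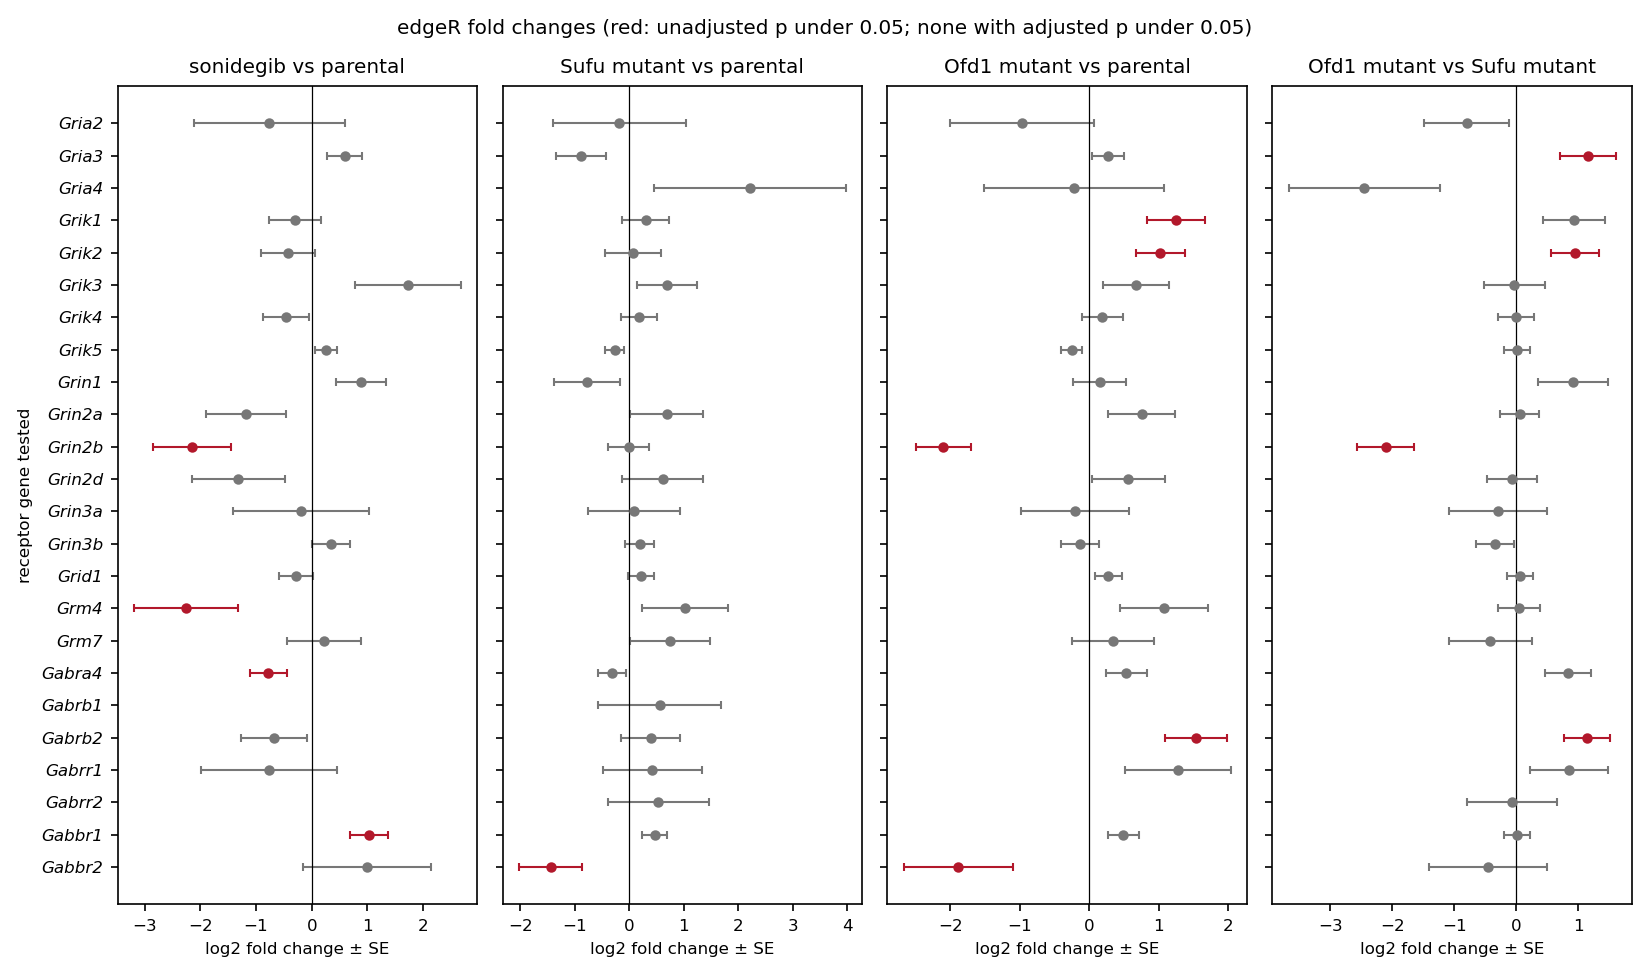
Log2 fold changes (points) with their SE (bars) from edgeR for receptor genes tested in the 4 comparisons, with red marking an unadjusted p under 0.05. No point has an adjusted p under 0.05, and the axes differ between panels; Gabbr2 is at -1.45 and -1.89 in the Sufu and Ofd1 panels and Grin2b at -2.16 and -2.10 in the sonidegib and Ofd1 panels.

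In Ofd1 mutant clones against parental cells, Gabrb2 and Grik1 lay above all parental libraries in 4 of 4 clone libraries, and Grin2b lay below them in 4 of 4. Of 25 receptor genes tested, 0 were called by edgeR, beside 0.363% of all 13779 genes. An unadjusted p under 0.05 was found in 6 of 25 (24.0%), 4 higher and 2 lower, beside 13.8% of all genes. In 3 receptor genes all 4 clone libraries were above all parental ones, beside 6.17% of all genes, and in 1 below, beside 7.25%. Grin2b was at 0.821 ± 0.343 CPM against 3.56 ± 0.616 CPM, a difference of -2.10 ± 0.39 (adjusted p = 0.0673).

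Grin2b passed without R25 (-2.28, adjusted p = 0.0461), and it did not with the R14 libraries summed into 1 (-1.96, adjusted p = 0.135). Gabrb2 differed by 1.54 ± 0.45 (adjusted p = 0.182) and by 0.79 with parental 3 as the only control. Grik1 differed by 1.25 ± 0.42 (adjusted p = 0.237) and Grik2 by 1.03 ± 0.36 (adjusted p = 0.252), the latter by 0.40 against parental 3 alone. Gabbr2 differed by -1.89 ± 0.78 (adjusted p = 0.338), by -2.95 without R25 and by -0.83 against parental 3 alone. Without parental 3, Grm4 (2.40, adjusted p = 0.0337) and Grin2a (1.61, adjusted p = 0.0467) passed, which in the full comparison differed by 1.08 ± 0.63 and 0.76 ± 0.48. The median of the 25 genes was 0.34 beside 0.01 for all genes, with 17 values positive. DESeq2 called 3 receptor genes, among them Grin2b (adjusted p = 1.094e-04) and Gabrb2 (adjusted p = 0.0147), and 5.50% of all genes.

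Between the clone groups, the ranges of Grin2b and Gabrb2 did not overlap, and no difference passed the test. The Sufu and Ofd1 comparisons with parental cells share the parental libraries, so their values side by side are not independent. Of 27 receptor genes tested in Ofd1 against Sufu mutants, 0 were called by edgeR, beside 0.00713% of all 14026 genes. An unadjusted p under 0.05 was found in 5 of 27 (18.5%), 3 higher and 2 lower in the Ofd1 mutants, beside 8.93% of all genes. The groups did not overlap for 4 genes higher in the Ofd1 mutants (Gabrb2, Gria3, Gabra4 and Grik1; 9.85% of all genes) and for 2 lower, Grin2b among them (8.34%).

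Grin2b differed by -2.10 ± 0.46 (adjusted p = 0.315). Gabrb2 differed by 1.14 ± 0.37 (adjusted p = 0.473), Gabra4 by 0.83 ± 0.37 (adjusted p = 0.572) and Grik2 by 0.94 ± 0.38 (adjusted p = 0.546). Gria3 differed by 1.15 ± 0.45 (adjusted p = 0.530). Both depended on the Sufu clone kept, with Gria3 at 2.09 without R13 and 0.59 without R1, and Grik2 at 1.55 without R13 and 0.52 without R1. DESeq2 called 2 receptor genes, among them Grin2b (-2.10, adjusted p = 0.0160), and 2.00% of all genes.

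In all 4 comparisons the median absolute log2 difference of the receptor genes was above that of all genes tested, at 0.66 beside 0.38 for sonidegib, 0.50 beside 0.23 for Sufu, 0.56 beside 0.18 for Ofd1 and 0.42 beside 0.21 for Ofd1 against Sufu. They also differed more between libraries of 1 group. Among 25 receptor genes and 13274 genes in all with a mean of at least 0.5 CPM, a difference of at least 2-fold on CPM + 0.1 was found between parental 3 and parental 1 in 13 (52.0%, beside 11% of all genes) and between parental 3 and parental 2 in 10 (40.0%, beside 10.4%). Parental 1 and 2 differed so in 0 of 25 (1.36% of all genes). Between R13 and R1 it was 6 (24.0%, beside 12.2%), all higher in R13 (among them Gria3, Gria4, Grik2, Grin1 and Grm7), and between the 2 sonidegib libraries 9 (36.0%, beside 23.8%). The 2 R14 libraries differed so in 5 genes (20.0%, beside 4.05%), and pairs of different Ofd1 clones in 5 to 9 (20.0% to 36.0%, beside 4.78% to 10.1%). Of the 5 pairs of different clones, 1 (R16 and R25) matched the R14 pair in receptor genes, the other 4 had 7 to 9, and over all genes each of the 5 exceeded it. Levels of genes set beside the receptor genes were not matched to theirs.

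Parental 3 was at least 2-fold above both other parental libraries in 8 of the 25 genes (Gria2, Gria4, Grin2a, Grin2d, Grm4, Grm7, Gabrb2 and Gabrr1; 5.51% of all genes) and at least 2-fold below both in 3 (Gabbr2, Grik3 and Grin3a; 2.90%). The mature granule neuron marker Calb2 was at 2.60 and 2.55 CPM in parental 1 and 2 and 74.0 CPM in parental 3. Among parental libraries the other detected markers of its list were also highest in parental 3 except Cbln1, by unequal amounts. In parental 1, 2 and 3, Fat2 (5.70, 8.31 and 19.5 CPM) and Etv1 (16.1, 18.3 and 33.9 CPM) also rose. Rbfox3 (198.9, 164.3 and 206.2 CPM) and Cbln3 (4.97, 4.99 and 6.32 CPM) changed less, and Cbln1 was lowest in parental 3 (130.6, 142.9 and 113.2 CPM). Gabra6 had no count there, and Grm4 is itself a receptor gene named above. Of the 8 mature granule neuron markers 7 were detected. Their summed levels were 343 to 465 CPM in parental cells, highest in parental 3, and 338 to 373 CPM with sonidegib. They were 239 to 380 CPM in Sufu and 227 to 458 CPM in Ofd1 mutants. The part of these transcripts in the receptor levels was not tested. Of 5 GABAergic interneuron markers 2 were detected, Gad2, Pax2 and Slc32a1 did not pass 0.0667 CPM, and the 5 microglia markers summed to at most 0.371 CPM. Astrocyte and Bergmann glia markers summed to 387 to 630 CPM in parental cells, 506 to 880 CPM with sonidegib, 330 to 413 CPM in Sufu and 211 to 366 CPM in Ofd1 mutants. For the oligodendrocyte lineage the sums were 157 to 377, 60.5 to 89.9, 202 to 486 and 234 to 430 CPM in the same order, and most of each was Pdgfra. Their part in the receptor levels was not tested either.

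**Figure D5:**
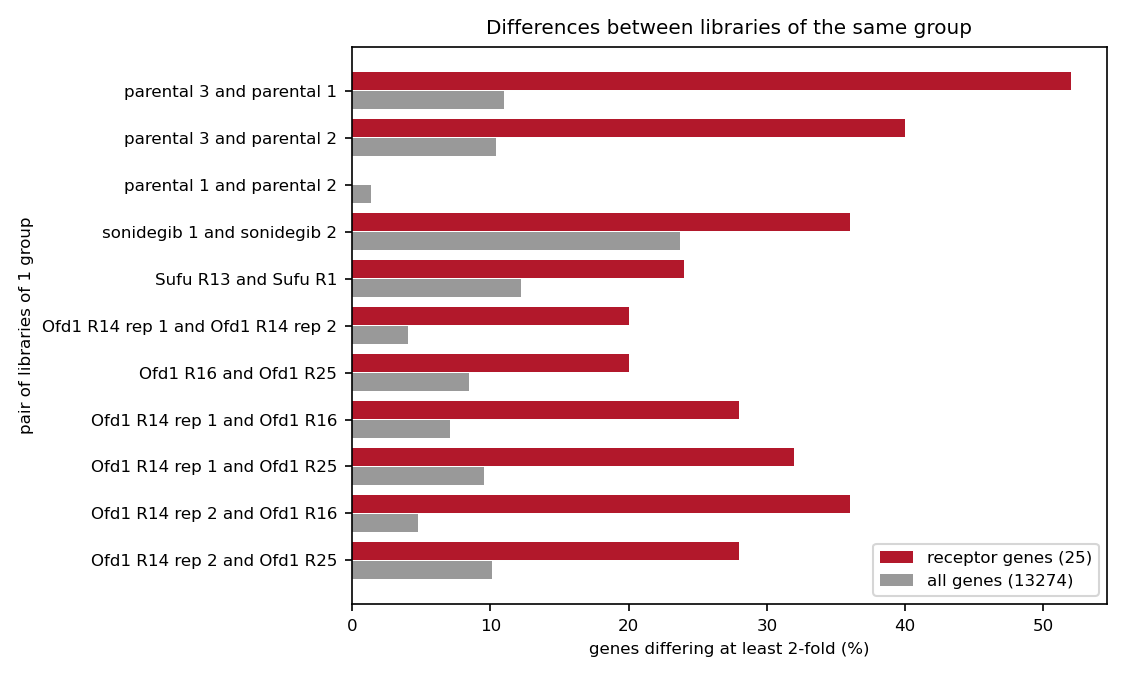
Percent of 25 receptor genes (red) and of all 13274 genes (grey) with a mean of at least 0.5 CPM that differ at least 2-fold between 2 libraries of 1 group, on CPM + 0.1. The receptor genes exceed the percentage of all genes in 10 of 11 pairs, and the bar for parental 1 and 2 is at 0%.

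Partners of these receptors and granule neuron differentiation genes were read from 5 lists. Of their genes 0 passed the edgeR test in any comparison except Syt1, the calcium sensor of transmitter release, from the differentiation list. Syt1 was higher in the Ofd1 mutants (144 ± 57.5 against 36.8 ± 1.31 CPM, log2 difference 1.98 ± 0.29, adjusted p = 0.0464). That fit took the 2 libraries of clone R14 separately. Fewer of all genes passed with them summed, and the value of Syt1 in that fit is not given here. Of 20 genes listed as auxiliary subunits of AMPA, kainate and NMDA receptors, 16 were tested in the Ofd1 mutants. Among these, 2 higher and 3 lower had an unadjusted p under 0.05, where 13.8% of all genes did. The AMPA receptor partner Cacng2 was at 0.140 ± 0.199 against 3.64 ± 2.15 CPM (-4.68 ± 0.97, adjusted p = 0.0878), Cacng4 at 7.71 ± 4.04 against 20.5 ± 1.79 CPM (-1.41 ± 0.38, adjusted p = 0.155) and Cacng5 at 0.780 ± 0.587 against 4.67 ± 1.29 CPM (-2.57 ± 0.66, adjusted p = 0.143). Shisa7 was higher in both clone groups, at 1.21 ± 0.675 CPM in Ofd1 and 0.941 ± 0.143 CPM in Sufu mutants against 0.151 ± 0.0773 CPM (adjusted p = 0.0944 and 0.333). In the other comparisons 2 higher and 1 lower (sonidegib, of 15), 1 and 0 (Sufu, of 16) and 1 and 1 (Ofd1 against Sufu, of 16) auxiliary subunits had an unadjusted p under 0.05, beside 14%, 9.68% and 8.93% of all genes.

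Of the excitatory scaffold and kinase genes 21 or 22 were tested, with 2 higher and 2 lower at an unadjusted p under 0.05 for sonidegib, 3 and 1 for Sufu, 2 and 2 for Ofd1 and 0 and 2 for Ofd1 against Sufu, beside 14%, 9.68%, 13.8% and 8.93% of all genes, which hold for the next lists too. Of 12 inhibitory scaffold genes it was 2 and 1, 0 and 2, 1 and 2, and 1 and 0 in the same order, and the GABA-A partner Lhfpl4 was at 68.8 ± 6.72 CPM in Sufu and 69.2 ± 5.73 CPM in Ofd1 mutants against 90.2 ± 8.54 CPM (adjusted p = 0.506 and 0.193). Of 16 or 17 synthesis and transport genes it was 1 and 3, 1 and 4, 3 and 4, and 3 and 1. The vesicular glutamate transporter Slc17a7 was at 7.91 ± 6.74 CPM in Ofd1 mutants against 1.48 ± 0.383 CPM (2.41 ± 0.66, adjusted p = 0.160), and the GABA-making enzyme Gad1 at 0.727 ± 0.444 against 0.174 ± 0.136 CPM (adjusted p = 0.255). Of 17 or 18 granule neuron differentiation genes it was 4 and 2, 2 and 2, 5 and 3, and 2 and 2. The medians of the 5 lists lay between -0.29 and 0.32, where those of all genes were within 0.04 of 0.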

How the data were processed

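Poly(A) RNA was sequenced in 11 libraries, grouped by the labels into parental, sonidegib-treated, Sufu mutant and Ofd1 mutant cells. Raw counts of reads per gene symbol were deposited by the authors, in 1 table. Per the submitters' processing notes, STAR, DESeq2 and build mm9 were used, while the counting tool, annotation, strand setting and tool versions were not given in the sources used here. An entry with no gene name (0.0131% to 0.0192% of counts) was left out.

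Groups were compared pairwise with the edgeR 4.0.16 quasi-likelihood test (R 4.3.3, TMM, filterByExpr, robust fit) on the libraries of the groups compared. Tests were two-sided, with Benjamini-Hochberg adjustment over all genes tested and calls at an adjusted p under 0.05. Each SE is the absolute log2 fold change divided by the square root of F. DESeq2 1.42.0, other filters and fits, each library left out in turn, and R14 libraries summed were alternatives. The test was checked on simulated data with a dispersion of 0.05 for every gene and no library set apart. That check does not cover the spread between these libraries. Transcript lengths (all 47 receptor genes) came from GENCODE on GRCm38 and promoters from RefSeq on GRCm38.p6, by symbol.

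Fold changes are given in each comparison for up to 6 tested receptor genes with the smallest unadjusted p and a mean of at least 0.5 CPM in a group, and levels for these and the 12 highest. Some genes that this rule names are not reported here. Other named genes were chosen after their values were seen. The receptor genes and lists were chosen with earlier results of these data known. Reads carry no molecular identifiers, so counting intervals and limits cover counting error only.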

Additional observations from a re-analysis of the deposited data

How the results depend on the processing

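No fold change of a named receptor gene changed sign under an alternative. Receptor genes called, 0 in each comparison, became 1 for sonidegib, 2 for Sufu, 3 for Ofd1 and 2 for Ofd1 against Sufu with DESeq2, and 1 for Ofd1 without a low-count filter. Leaving out each library gave 0 to 3 for sonidegib and 0 to 2 for Ofd1. Genes called went from 9 for sonidegib, 0 for Sufu, 50 for Ofd1 and 1 for Ofd1 against Sufu to 733, 305, 755 and 275 with DESeq2, and to 109, 3, 84 and 2 without the filter. With all 4 groups in 1 fit there were 316 for sonidegib and 9 for Ofd1, with the trend on transcript length removed 104 and 28, and with R14 libraries summed 1 for Ofd1 and 0 for Ofd1 against Sufu. Leave-one-out counts ran from 0 to 3263 for sonidegib (3263 without sonidegib 1), 0 to 11 for Sufu (11 without parental 3), 0 to 329 for Ofd1 (329 without parental 3, 226 without R25) and 0 to 11 for Ofd1 against Sufu (11 without R13). The cause was not tested. Where leaving out a library left a group with 1, that library was assumed to vary like the other group. With the replicate number as a block, sonidegib gave 0 receptor genes and 97 genes. Whether the numbers pair the samples could not be told. Deviations from the group means correlated at 0.255 for replicates 1 and -0.315 for replicates 2 (12615 genes). With 2 sonidegib libraries, their deviations are opposite by construction, so these values cannot show pairing or its absence. Below about 0.5 CPM, 11.9 to 19.3 counts, a difference in a receptor gene was hardly detectable at this depth.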
